A study of Arabidopsis thaliana with 6 samples.

Results

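Mutator genes are the gene models of the array whose descriptions in the deposited files name the Mutator or MuDR transposon and no other transposon superfamily. This rule took 279 of the 30361 gene models. Mutator elements are DNA transposons that move by cut and paste. They are named after Mutator of maize, whose autonomous element MuDR carries mudrA, the gene of the MURA transposase. Arabidopsis carries many related elements, most of them decayed, and its genome has also turned some of their transposase genes into ordinary host genes. Intact copies are normally held silent by several pathways, among them a loop of KYP (SUVH4) and CMT3. KYP, a histone methyltransferase, reads CHG DNA methylation and places H3K9 methylation. CMT3, a chromomethylase, reads H3K9 methylation and places CHG methylation.

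RNA came from young leaves of Arabidopsis thaliana harvested at 4 weeks of age, after growth on soil under long days with no treatment. The 3 genotypes were wild type Col-0, the kyp mutant and the cmt3 mutant, with 2 arrays each, and no allele is named for either mutant. Each array was read in 1 colour and gave 1 RMA-normalized intensity for each gene model, reported here on the log2 scale. The labels do not say if the 2 arrays of a genotype stand for different plants, and the p-values hold only for the spread among the arrays, possibly a technical one. By the image names, slide 1 held the 2 wild type arrays with kyp replicate 1, and slide 2 the 2 cmt3 arrays with kyp replicate 2. Wild type and cmt3 therefore share no slide.

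CMT3 read 12.61 and 12.59 in wild type, 12.79 and 12.70 in kyp and 10.94 and 10.97 in cmt3. It fell 3.13-fold in cmt3 (adjusted p = 0.0159, limma). KYP read 10.24 and 10.19 in wild type and 10.04 and 9.91 in kyp, a difference of -0.24 that did not pass (adjusted p = 0.515, limma). The 8 photosynthesis genes checked as markers of leaf had a median between 15.94 and 15.96 on every array. All but LHCB1.1 lay near the highest intensity of the arrays (64963), so they mark the tissue as leaf but could show little difference between genotypes. The medians of the markers of root (5.08 to 5.72), pollen (5.20 to 5.65), seed (5.12 to 6.19) and floral organs (6.55 to 7.58) were lower, although intensities of different probes are not strictly comparable. None of the markers of the other organs was called in any of the 3 comparisons, where 0.0296% to 0.741% of all models were called. The smallest adjusted p of a marker was 0.145, for the seed storage gene SESA2 in cmt3, where its log2 difference from wild type was -1.09.

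The description of 1 of the 279 models does not name a transposon. It is MSH1 (AT3G24320), a MutS-like protein of organelle genome stability, which the rule took because its older name is CHLOROPLAST MUTATOR. MSH1 read 10.86 and 10.81 in wild type, 11.005 and 11.04 in kyp and 11.21 and 11.24 in cmt3, and it was not called (adjusted p = 0.56 in kyp and 0.12 in cmt3, limma). It enters the totals below and none of the counts of called or 2-fold different genes. Of the other 278 models, 195 were described by a match to the MuDR transposase domain of Pfam and 65 by a match to mudrA of maize. A further 16 were described as pseudogenes and 2 in other words. RefSeq matched all 279 loci and lists 276 as pseudogenes and 3, MUG3, MUG7 and MSH1, as protein coding. The deposited files and the reference tables used here hold no sequence for these genes, so none is printed.

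The genes spread over all 5 chromosomes, with 50, 69, 66, 45 and 49 on chromosomes 1 to 5. Their median span was 2349 bases, from 308 to 15195. Among the 20 nearest gene models (10 on each side), the median Mutator gene had 6 that were described as transposons, against 0 for the median of all models. The number reached 17. A single model can stand for several loci with the same sequence in the annotation of the array. AT1G08735 stands for 4 loci, and AT1G13660 and AT5G27902 for 2 each.

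In wild type leaves most Mutator genes lay near the lower end of the intensities. The median over the 279 genes was 5.71 and 5.59 on the wild type arrays, against 9.91 and 9.90 over all models. In all, 187 Mutator genes (67.0%) were in the lowest 25% of wild type intensities, and 14 lay above the median of all models. The files carry no detection call, so a gene in the lowest 25% was not called absent, and a fold change from there is a fold of intensity that can understate a change in transcript. Mutator genes also repeated less well between arrays than all models did. The median size of the log2 difference between the 2 arrays of a genotype for Mutator genes was 0.52 (wild type), 0.42 (kyp) and 0.38 (cmt3). Over all models it was 0.17, 0.19 and 0.20.

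Of the 14 Mutator genes above the median, 8 were the MUSTANG genes MUG1 to MUG8. These are host genes that descend from a Mutator transposase and are retained by the plant for its own growth and reproduction. The 5 Mutator genes with the highest wild type intensity were AT2G13970 (13.63 ± 0.03, SD, n = 2), MUG1 (13.34 ± 0.02), MUG4 (13.29 ± 0.02), MUG8 (13.04 ± 0.04) and AT4G08220 (12.71 ± 0.17). AT2G13970, at 5869618 to 5871883 on chromosome 2, and AT4G08220, at 5186607 to 5187569 on chromosome 4, carry no symbol and are described by a match to maize mudrA and to the MuDR domain, respectively. Coordinates are given as in the deposited files (Release 6 models). The order of these genes is one of intensity and includes the brightness of their own probes.

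**Figure D1:**
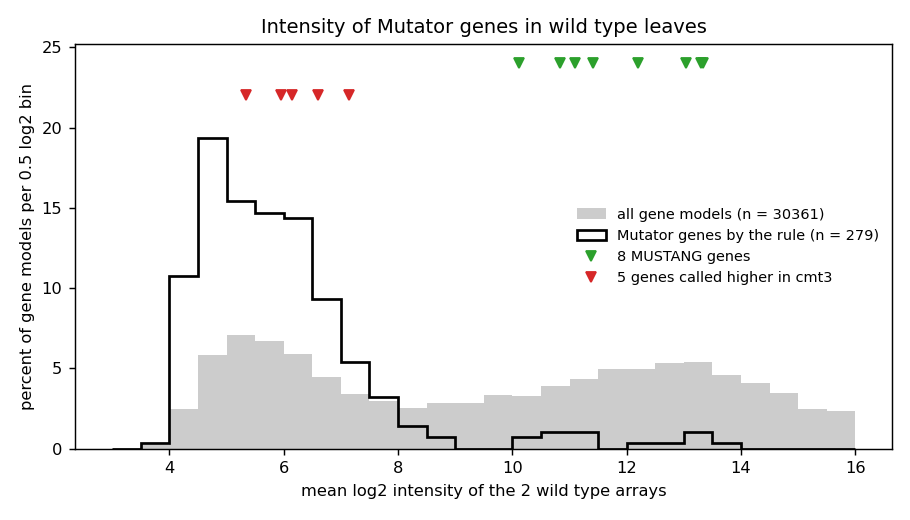
Distribution of the mean log2 intensity of the 2 wild type arrays (x axis) as the percent of gene models per bin (y axis), for all 30361 gene models (grey) and the 279 Mutator genes (black line). Green triangles mark the 8 MUSTANG genes, which all lie above the median of all models, and red triangles the 5 genes called higher in cmt3, which lie between 5.34 and 7.14.

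The question of the kyp and cmt3 comparisons is which of these genes change in leaves that are mutant in either enzyme of the silencing loop. Changes of single genes were tested with limma over all 30361 models, with calls made where the Benjamini-Hochberg adjusted p was under 0.05. A second count describes, without a test, the genes that differed at least 2-fold with both arrays of one genotype above, or both below, the 2 arrays of the other.

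In cmt3, 5 Mutator genes were called higher and none lower (limma, adjusted p under 0.05), where 0.741% of all models were called, 0.56% higher and 0.181% lower. They were AT5G27345 (17.5-fold), AT1G78095 (17.0-fold), AtMu1 (AT4G08680, 12.7-fold), AT1G67240 (9.35-fold) and AT5G26345 (7.53-fold). AtMu1 is a Mutator element known to be kept silent by DNA methylation. All 5 belong to the 65 genes described by a match to maize mudrA. The others did not pass. An unadjusted p under 0.05 was reached by 45 of the 279, against 6988 of the 30361 models, which is a larger share.

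AT5G27345 read 6.68 and 7.60 in wild type, 10.92 and 10.97 in kyp and 11.44 and 11.09 in cmt3. AT1G78095 read 6.08 and 6.21 in wild type, 10.48 and 9.76 in kyp and 10.46 and 9.996 in cmt3. AtMu1 read 6.40 and 6.80 in wild type, 10.34 and 10.05 in kyp and 10.53 and 10.004 in cmt3. In these 3 genes all 4 mutant arrays were above both wild type arrays, and the kyp arrays lay as high as or close to the cmt3 arrays. The log2 change from wild type to cmt3 was 4.13 ± 0.34 (SE) for AT5G27345, 4.09 ± 0.30 for AT1G78095 and 3.67 ± 0.26 for AtMu1 (adjusted p = 0.0328, 0.0283 and 0.0246, limma).

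In kyp the same genes stood at 3.80 ± 0.34 (SE), 3.97 ± 0.30 and 3.60 ± 0.26, that is 14.0-, 15.7- and 12.1-fold above wild type, and did not pass over all models (adjusted p = 0.0815, 0.0653 and 0.061, limma). With an offset of 50 before the logarithm all 3 passed in kyp (adjusted p = 0.0335, 0.0442 and 0.0281), as they did with an intensity trend in the variance (0.0151, 0.0129 and 0.0119). Without the dimmest 25% of models AT1G78095 and AtMu1 passed (0.0421 and 0.0336) and AT5G27345 did not (0.0509). That filter used the mean of all arrays, the mutants included. AT1G78095 was in the lowest 25% in wild type and was kept through its high mutant arrays. None of the 3 passed with robust moderation (0.104, 0.089 and 0.0787), the replicate block (0.233, 0.183 and 0.205) or the 4 arrays alone (0.289, 0.288 and 0.214). Within slide 1, the differences of kyp replicate 1 from wild type were 3.78, 4.33 and 3.74. The difference between kyp and cmt3 was -0.32 ± 0.34, -0.11 ± 0.30 and -0.07 ± 0.26 for the 3 genes, which is within its error. The kyp and cmt3 changes share the wild type arrays.

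These 3 genes lie on different chromosomes, at 9641508 to 9643920 on chromosome 5, 29382645 to 29385076 on chromosome 1 and 5542428 to 5544859 on chromosome 4 (AtMu1). Their spans are close in length, at 2413 bases for AT5G27345 and 2432 bases for both AT1G78095 and AtMu1. Whether their probes also bind one another's transcripts was not tested, since no probe sequence was used. The nearest gene models on either side were not called in cmt3. Around AtMu1 they were AT4G08670 (log2 change -0.29 in cmt3) and SAH7 (0.11), and around AT5G27345 they were AT5G27340 (-0.44) and SFP1 (-0.20), a sugar porter gene. Beside AT1G78095, TPPB, a trehalose-6-phosphate phosphatase gene 1248 bases away, stood at 1.07 in cmt3 and 0.99 in kyp (adjusted p = 0.102 and 0.341, limma), and AUF1 on the other side at 0.24 and -0.17. AT1G78095 is 3.13 Mb from CMT3 on the same chromosome.

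AT1G67240 read 5.79 and 6.12 in wild type, 6.79 and 6.82 in kyp and 9.59 and 8.77 in cmt3. AT5G26345 read 5.29 and 5.39 in wild type, 6.84 and 6.56 in kyp and 8.24 and 8.26 in cmt3. In both genes the 3 genotypes did not overlap, with kyp between wild type and cmt3. The change in cmt3 was 3.22 ± 0.31 (SE) for AT1G67240 and 2.91 ± 0.13 for AT5G26345 (adjusted p = 0.0454 and 0.00983, limma). In kyp they stood at 0.85 ± 0.31 and 1.36 ± 0.13 and did not pass (adjusted p = 0.481 and 0.0968, limma). The difference between kyp and cmt3 was -2.37 ± 0.31 and -1.55 ± 0.13, which did not pass either (adjusted p = 0.252 and 0.145, limma). AT1G67240 lies at 25162521 to 25165985 on chromosome 1, and AT5G26345 at 9249460 to 9252816 on chromosome 5. AT1G67240 is 1.09 Mb from CMT3, so that an effect of cmt3 and a difference of the chromosome segment around the mutated gene cannot be told apart there. Its neighbours LINC1 (0.35) and AT1G67250 (-0.27) were not called in cmt3, nor were MSS1 (0.09) and AT5G26350 (0.39) beside AT5G26345.

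The calls in cmt3 rest on the full set of arrays, in fits that lose degrees of freedom with each array. Without wild type replicate 1, cmt3 replicate 1 or cmt3 replicate 2 none of the 279 genes was called, and without wild type replicate 2, kyp replicate 1 or kyp replicate 2 there was 1. With the slide as a block no gene model of the array was called. Since wild type and cmt3 share no slide, that fit takes the slide difference from the 2 kyp arrays alone. All 5 changes stayed positive over the alternatives run. AT5G27345 lay between 3.67 and 4.59, AT1G78095 between 3.37 and 4.80, AtMu1 between 3.12 and 3.96, AT1G67240 between 2.49 and 3.64, and AT5G26345 between 1.97 and 3.20.

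At least 2-fold higher in cmt3 without overlap were 21 Mutator genes (7.53%), against 4.09% of all models, and 11 (3.94%) were lower, against 5.18%. Without wild type replicate 2 there were 30 higher and 33 lower, and without cmt3 replicate 2 the counts were 27 and 22. A single array overlaps less often, and the shares over all models were not counted there. These counts are thus not on the same footing as those of 2 arrays. The intensities at which a gene starts bear on such counts: among all models in the lowest 25% of wild type intensities, 8.23% were higher and 2.31% lower by the same rule, and among Mutator genes there, 8.56% and 1.60%. Of the 21 genes, 16 lay in that range. Above that range, 5.43% of the 92 Mutator genes were higher and 8.70% lower, against 2.71% and 6.14% of all models, and the median of the 92 was -0.28. The wild type arrays that set the range also enter each difference, so the split cannot by itself show a direction of change. Among the 88 Mutator genes left by a filter on the mean of all arrays, 13 were higher and 3 lower in cmt3. Their median was -0.04. That mean includes the mutant arrays, so a gene dim in wild type can pass the filter by being high in a mutant. These counts therefore cannot by themselves show a direction of change either. The median log2 change of the 279 genes was -0.04 in cmt3, with 127 positive and 152 negative, and 0.03 over all models. It turned positive with the slide as a block (0.08) and without wild type replicate 1 (0.04). By description, 13 of the 65 genes with a match to maize mudrA were higher (20.0%), as were 4 of the 195 with a match to the MuDR domain (2.05%) and 4 of the 16 pseudogenes. For comparison, the share of genes at least 2-fold higher in cmt3 was 21.8% of 340 CACTA genes, 17.4% of 483 copia genes, 15.4% of 78 hAT genes, 12.99% of 354 LINE genes and 8.30% of 916 gypsy genes. These shares were not tested against each other.

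Among the genes far above wild type in cmt3 that were not called, AT3G30170 read 6.25 and 5.20 in wild type, 6.67 and 7.32 in kyp and 8.23 and 8.60 in cmt3. AT1G35995 read 4.57 and 5.64 in wild type, 5.85 and 6.34 in kyp and 7.46 and 7.76 in cmt3. Both are described by a match to maize mudrA and, like AT1G67240 and AT5G26345, had their kyp arrays between the wild type and the cmt3 arrays. Their changes in cmt3 were 2.69 ± 0.44 (SE) and 2.51 ± 0.42 (adjusted p = 0.0919 and 0.0927, limma), and they passed with an intensity trend (adjusted p = 0.0343 and 0.0374). AT5G27902, which stands for 2 loci, read 4.74 and 6.03 in wild type, 7.57 and 7.41 in kyp and 7.27 and 7.65 in cmt3. It stood at 2.11 ± 0.46 in kyp and 2.08 ± 0.46 in cmt3 and passed in neither (adjusted p = 0.354 and 0.119, limma).

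**Figure D2:**
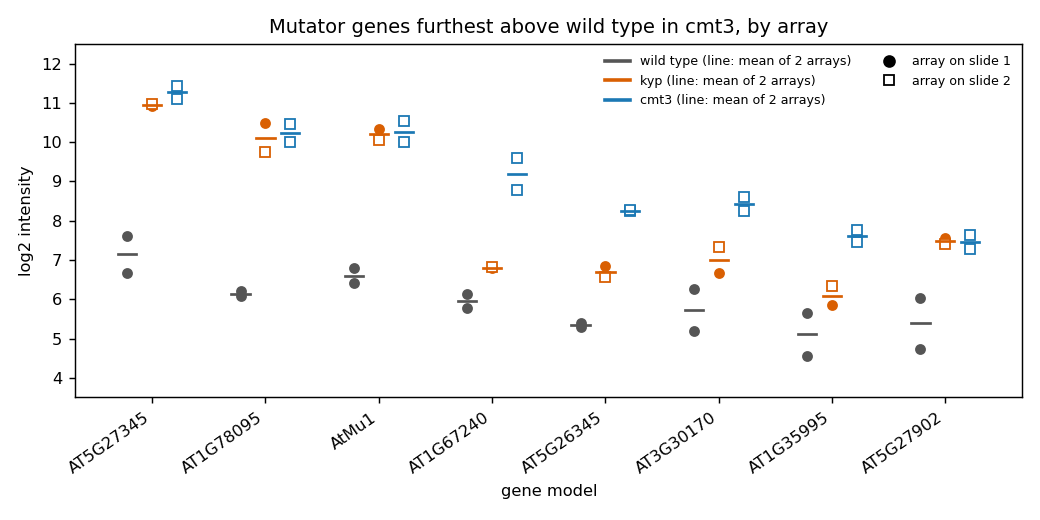
Log2 intensity (y axis) on each of the 6 arrays for the 8 Mutator genes furthest above wild type in cmt3 (x axis), with colour for the genotype, filled circles for slide 1, open squares for slide 2 and a line for the mean of the 2 arrays. In AT5G27345, AT1G78095, AtMu1 and AT5G27902 the kyp and cmt3 arrays are alike in height, and in the other 4 genes kyp lies between wild type and cmt3.

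In kyp no Mutator gene was called in either direction (limma, adjusted p under 0.05), where 0.105% of all models were called, 0.0988% higher and 0.00659% lower. An unadjusted p under 0.05 was reached by 36 of the 279, against 3104 of the 30361 models. At least 2-fold higher without overlap were 17 genes (6.09%), against 2.08% of all models, and 13 (4.66%) were lower, against 2.36%. Without wild type replicate 2 there were 25 higher and 34 lower, and without kyp replicate 1 there were 28 and 24. A single array overlaps less often, and the shares over all models were not counted there. These counts are thus not on the same footing as those of 2 arrays. Among the 17, 15 started from the lowest 25% of intensities, where 8.02% of Mutator genes and 5.52% of all models were higher by the same rule. Of the 13 lower genes, 9 were among the 92 Mutator genes above the lowest 25% of wild type intensities (9.78%), where 2.42% of all models were lower. There 64 of the 92 differences in kyp were negative, with a median of -0.26. The wild type arrays that set this range also enter each difference, so the split cannot by itself show a direction of change. Among the 88 Mutator genes left by a filter on the mean of all arrays, 7 were higher and 4 lower in kyp. Their median was -0.04. That mean includes the mutant arrays, so a gene dim in wild type can pass the filter by being high in a mutant. These counts therefore cannot by themselves show a direction of change either. Matches to maize mudrA made up 9 of the 17, matches to the MuDR domain 6 and pseudogenes 2. The share at least 2-fold higher in kyp was 12.8% of hAT, 12.1% of CACTA, 11.6% of copia, 8.76% of LINE and 6.77% of gypsy genes. These shares were not tested against that of Mutator genes. The median log2 change of the 279 genes was -0.06 in kyp, with 125 positive and 154 negative.

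Apart from AtMu1, AT1G78095, AT5G27345 and AT5G27902, the largest positive differences in kyp started from a very low level and did not pass. AT1G12720 read 4.42 and 4.61 in wild type, 6.31 and 6.50 in kyp and 5.92 and 6.48 in cmt3. Its change was 1.89 ± 0.23 (SE) in kyp and 1.69 ± 0.23 in cmt3 (adjusted p = 0.142 and 0.0762, limma). AT1G17275 read 4.75 and 4.46 in wild type and 5.53 and 7.07 in kyp, and AT2G17460 read 5.57 and 4.28 and then 5.86 and 7.17. The pseudogene AT3G42353 read 4.63 and 4.40 in wild type and 6.82 and 5.32 in kyp. In these last 3 genes the 2 kyp arrays differed by more than 1 on the log2 scale, and their differences from wild type of 1.70, 1.59 and 1.56 did not pass (adjusted p = 0.448, 0.556 and 0.476, limma).

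Both mutants were at least 2-fold higher without overlap in 9 Mutator genes, which is 52.9% of the 17 in kyp and 42.9% of the 21 in cmt3. Both lists use the same wild type arrays. Genes higher or lower in both mutants were not counted over all models, so these overlaps cannot be read as an excess. Of the 9, 7 are described by a match to maize mudrA and 2 are pseudogenes. Lower in both were 3 genes, AT1G34700, AT3G43526 and AT4G06572, and no gene was 2-fold higher in one mutant and 2-fold lower in the other.

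**Figure D3:**
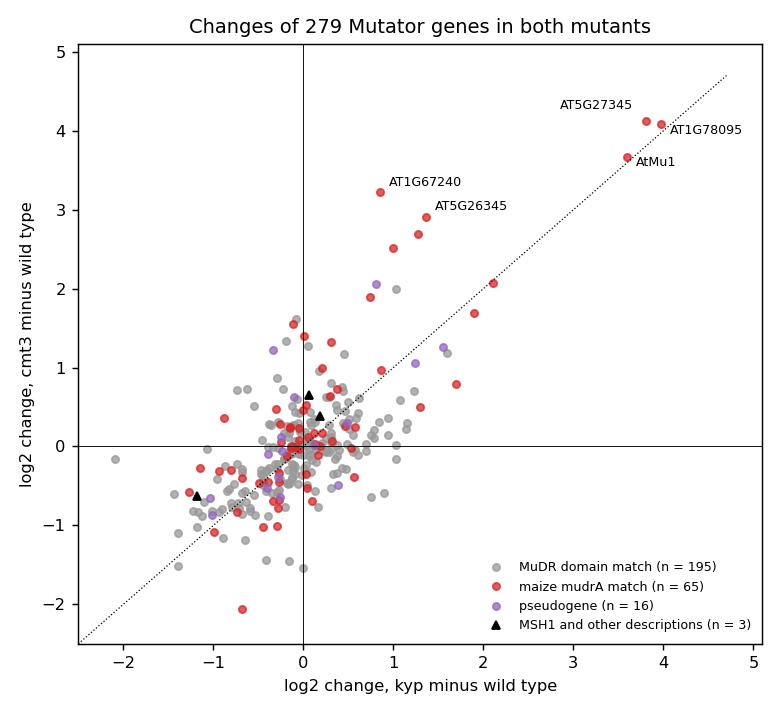
Log2 change from wild type in kyp (x axis) and in cmt3 (y axis) of the 279 Mutator genes, coloured by their description, with a dotted line where the changes are equal. Both changes share the wild type arrays. AtMu1, AT1G78095 and AT5G27345 lie near the line at 3.60 to 4.13, AT1G67240 and AT5G26345 lie well above it, and most other genes lie within 1 of 0 on both axes.

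No Mutator gene was called lower in either mutant. In kyp the largest negative difference without overlap was that of AT2G07500, which read 7.04 and 6.22 in wild type, 4.66 and 4.43 in kyp and 5.98 and 6.95 in cmt3. Its difference was -2.09 ± 0.44 (SE) in kyp (adjusted p = 0.345, limma) and -0.16 in cmt3. AT3G26265 (-1.44), AT4G06572 (-1.39), AT3G43526 (-1.39) and AT5G28580 (-1.27) followed in kyp. AT3G26265 read 8.02 and 8.65 in wild type and 6.003 and 7.78 in kyp, and without kyp replicate 1 its difference was -0.55. AT4G06572 read 6.43 and 7.33 in wild type and 6.36 and 4.62 in kyp, and without kyp replicate 2 its difference was -0.52. In both genes 1 kyp array lay far below the other. AT3G43526 read 6.55 and 6.02 in wild type, 4.92 and 4.86 in kyp and 5.15 and 5.24 in cmt3, so that both mutants lay below wild type, and its difference did not pass in kyp (adjusted p = 0.219) or in cmt3 (adjusted p = 0.101, limma).

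In cmt3 the largest negative difference without overlap was that of AT1G13660, which stands for 2 loci. It read 7.84 and 8.15 in wild type, 7.99 and 6.65 in kyp and 6.13 and 5.75 in cmt3, a difference of -2.06 ± 0.49 in cmt3 (SE; adjusted p = 0.126, limma). The 4 next, AT2G02190 (-1.53), AT4G06572 (-1.51), AT1G25784 (-1.46) and AT5G28253 (-1.44), had wild type arrays that differed by 0.90 to 2.01 on the log2 scale. With the slide as a block AT1G13660 stood at -0.72 and AT5G28253 at -0.31, and AT2G02190, AT4G06572 and AT1G25784 changed sign, to 0.22, 0.22 and 1.42. The block shifts each cmt3 difference by the difference of the 2 kyp arrays, so these values carry the spread of single kyp arrays.

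Between kyp and cmt3 no Mutator gene was called (limma), where 0.0296% of all models were called, 0.00988% higher and 0.0198% lower in kyp. Of the 279, 35 had an unadjusted p under 0.05, against 3796 of the 30361 models. At least 2-fold higher in kyp without overlap were 7 genes (2.51%), against 3% of all models, and 19 (6.81%) were lower in kyp than in cmt3, against 2.42%. This imbalance changed with the arrays used. Within slide 2, which leaves out kyp replicate 1, 20 genes were higher and 19 lower. Without kyp replicate 2 the counts were 23 and 26, and without cmt3 replicate 2 they were 17 and 23. Without cmt3 replicate 1 the imbalance stayed. A single array overlaps less often, so these counts are not on the same footing as those of 2 arrays. Of the 19, 9 are described by a match to maize mudrA. In the lowest 25% of wild type intensities, 4.87% of all models were lower and 2.96% higher in kyp than in cmt3. Among Mutator genes there, 5.35% were lower and 1.60% higher. The share lower in kyp was 10.9% of CACTA, 9.52% of copia, 9.04% of LINE, 8.97% of hAT and 3.60% of gypsy genes. The largest difference of a Mutator gene was that of AT1G67240. AT1G35645 read 4.88 and 4.36 in kyp and 5.60 and 7.02 in cmt3, with wild type at 4.72 and 4.68. AT5G34840 read 4.65 and 5.06 in kyp and 6.46 and 6.57 in cmt3, with wild type at 5.77 and 4.17. Their differences of -1.69 and -1.66 did not pass (adjusted p = 0.368 and 0.382, limma).

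In the other direction, AT3G47280 read 6.26 and 6.09 in kyp and 4.79 and 4.59 in cmt3, with wild type at 4.65 and 5.90. AT5G34825 read 7.90 and 7.49 in kyp, 5.82 and 6.78 in cmt3 and 7.03 and 6.85 in wild type, so that kyp lay above and cmt3 below wild type. Its difference between the mutants, 1.39 ± 0.37 (SE), did not pass (adjusted p = 0.361, limma). In all, 6 of the 279 genes had their mutant arrays on opposite sides of wild type, 3 in each direction. The share of such genes over all models was not counted. Within slide 2, kyp replicate 2 differed from cmt3 by -2.36 for AT1G67240, 1.40 for AT3G47280 and 1.19 for AT5G34825.

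**Figure D4:**
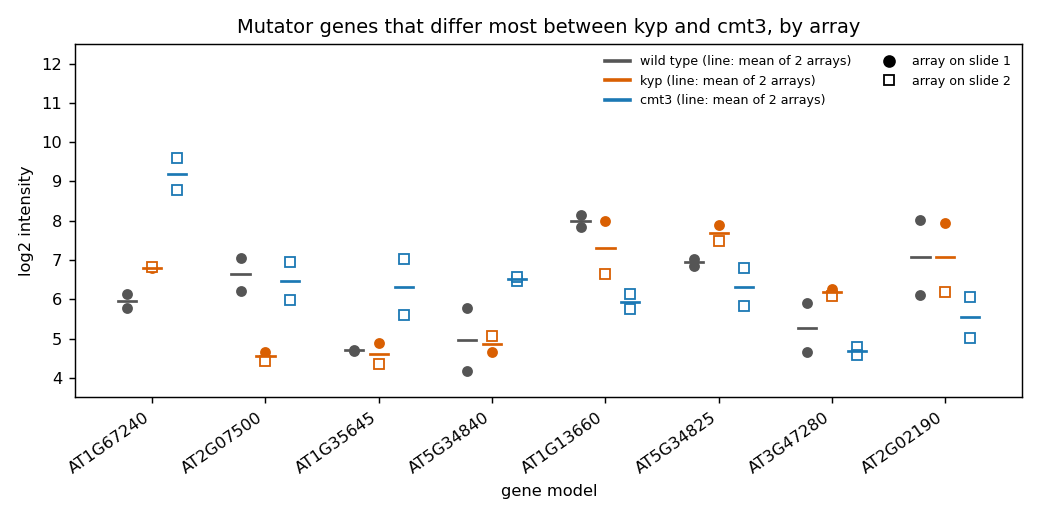
Log2 intensity (y axis) on each of the 6 arrays for the 8 Mutator genes that differ most between kyp and cmt3 without overlap (x axis), with colour for the genotype, filled circles for slide 1 and open squares for slide 2. AT1G67240, AT1G35645 and AT5G34840 are highest in cmt3, AT2G07500 is lowest in kyp, and AT2G02190 and AT1G13660 are lowest in cmt3.

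The position of the genes was set beside their changes as a description. All 5 genes called in cmt3 had 0 to 2 transposon-described models among their 20 neighbours, where 76 of the 279 Mutator genes did. By this number the genes at least 2-fold higher in cmt3 were 8 of 76 with 0 to 2 such neighbours (10.5%), 5 of 62 with 3 to 5 (8.06%), 4 of 82 with 6 to 9 (4.88%) and 4 of 59 with 10 or more (6.78%). In kyp they were 9 of 76 (11.8%), 2 of 62 (3.23%), 4 of 82 (4.88%) and 2 of 59 (3.39%). In the same order, the genes at least 2-fold lower were 3, 5, 0 and 3 in cmt3 and 4, 3, 1 and 5 in kyp. Over all models 4.09% were higher and 5.18% lower in cmt3, and 2.08% and 2.36% in kyp. A trend with the number of neighbours was not tested.

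None of the 8 MUSTANG genes was called in any comparison or differed 2-fold without overlap. Over all models 0.105% were called in kyp, 0.741% in cmt3 and 0.0296% between the mutants. From 2.08% to 5.18% of them were 2-fold different in any 1 direction. With shares this small, a count of 0 among 8 genes says little about them. The changes of the MUSTANG genes ran from -0.27 to 0.05 in kyp and from -0.33 to 0.24 in cmt3, with medians of -0.14 and 0.03. MUG1, the member with the smallest p, read 13.36 and 13.32 in wild type, 13.13 and 13.01 in kyp and 12.99 and 13.03 in cmt3 (adjusted p = 0.477 in kyp and 0.158 in cmt3, limma). MUG4 read 13.31 and 13.28 in wild type, 13.25 and 13.07 in kyp and 13.18 and 13.41 in cmt3, and MUG8 13.07 and 13.01, 13.15 and 13.04, and 13.21 and 13.11. MUG8 has 14 transposon-described models among its 20 neighbours, and MUG1 and MUG4 have 0. Of the other genes with a high intensity in wild type, AT2G13970 stood at -0.50 in kyp and -0.47 in cmt3 and AT4G08220 at -0.45 in each, and neither passed (adjusted p from 0.198 to 0.508, limma).

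A second family of host genes from a Mutator-like transposase, FHY3, FAR1 and their FRS relatives, is not described by the word Mutator in the files. FHY3 and FAR1 are transcription factors of the far-red light response by phytochrome A. None of the 13 genes of this family was called, where 0.105% of all models were called in kyp and 0.741% in cmt3. The median change of the 13 genes was -0.03 in kyp and 0.17 in cmt3, with 11 of 13 positive in cmt3. FRS10 stood apart at 1.36 ± 0.17 in cmt3 (SE), from 10.95 and 10.67 in wild type through 11.06 and 11.24 in kyp to 12.04 and 12.29, and did not pass (adjusted p = 0.069, limma). FRS6 had the smallest p in kyp, at -0.43 (adjusted p = 0.417, limma).

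**Figure D5:**
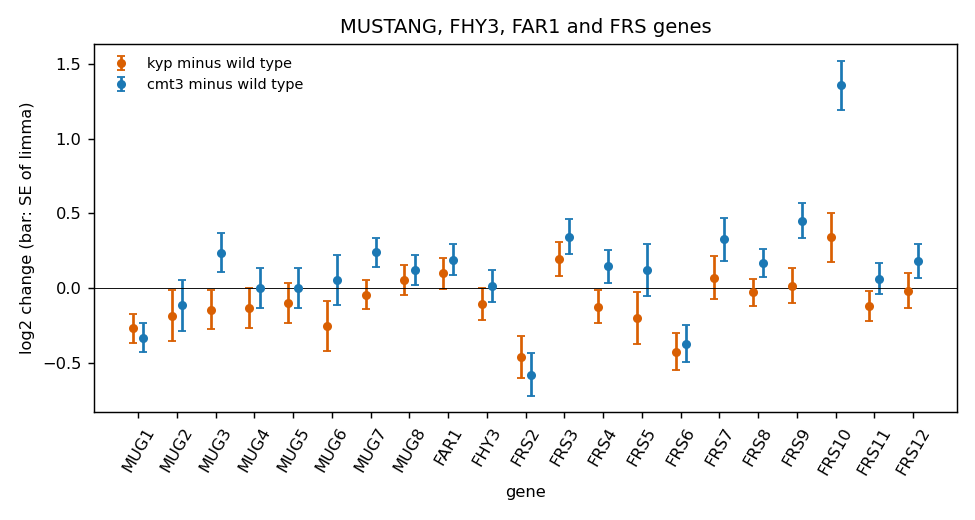
Log2 change from wild type in kyp (orange) and cmt3 (blue) with the standard error of limma (y axis) for the 8 MUSTANG genes and the 13 genes of the FHY3 and FRS family (x axis). All changes lie between -0.58 and 0.45 except that of FRS10 in cmt3 at 1.36.

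VANDAL21 is a Mutator-type element of Arabidopsis whose genes encode a transposase (VANA), a protein that acts against silencing of the element (VANC) and VANB. VANA (AT2G23500) is among the 279 genes, while the files describe VANB (AT2G23490) and VANC (AT2G23480) as unknown proteins. VANA read 7.32 and 6.58 in wild type, 7.64 and 6.41 in kyp and 7.23 and 7.54 in cmt3, so that the genotypes overlapped. VANB read 5.14 and 4.32 in wild type, 4.74 and 7.39 in kyp and 4.83 and 5.63 in cmt3, and only kyp replicate 2 was above the other arrays. VANC read 6.59 and 7.09 in wild type, 6.35 and 6.08 in kyp and 6.36 and 6.32 in cmt3. None of them passed in kyp (adjusted p = 0.976, 0.692 and 0.459) or in cmt3 (0.65, 0.801 and 0.249, limma).

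Over all models 0.105% were called in kyp and 0.741% in cmt3. Among 20 genes of the silencing pathways that act on Mutator elements, CMT3 itself was the only one called, in cmt3. The other 19, among them the methyltransferase genes MET1, CMT2 and DRM2, the remodeller gene DDM1, the RNA-directed pathway genes NRPD1, NRPE1, RDR2, DCL3 and AGO4 and RDR6, did not pass in either mutant. The list had a median change of 0.06 in both. IBM1, a histone demethylase gene that limits CHG methylation in genes, stood at -0.61 ± 0.12 in kyp (SE; adjusted p = 0.333) and had the smallest p there. In cmt3 it stood at -0.77 (adjusted p = 0.0882, limma).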

How the data were processed

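The deposited values were linear intensities, RMA-normalized by the authors, per the labels, with 1 value for each of 30361 gene models on each of 6 arrays. The settings of RMA were not stated. Each of the 279 genes was summarised from 2 (249 genes) or 3 probes (30 genes), per the file headers. The deposited series table repeats these intensities, with 0 values that differed. Coordinates and descriptions came from the per-array files (Release 6), and symbols from the RefSeq annotation of TAIR10.1 by locus, of which no coordinate was used.

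Intensities were transformed to log2 and fitted with limma 3.58.1 (R 4.3.3; linear model, contrasts and moderated variance at their defaults) over all models and all 6 arrays without a block or a filter, so all 279 genes were tested. The fit had 3 residual and 1.41 prior degrees of freedom. The procedure was tested on simulated data. Precision is limited by how few arrays there are. The members, lists and rules were chosen with earlier results of these data known. The genes named were all called members, the 8 largest positive and 5 largest negative differences without overlap in each mutant, the 4 largest differences between the mutants in each direction, the 5 highest in wild type, AtMu1, the VANDAL21 genes, and from each list the called gene or that with the smallest p. AT1G34700, the neighbours of called genes and further list members were named after their values were seen. Alternatives were an intensity trend, robust moderation, a filter on dim genes, quantile normalization, centring, an offset of 50, the 4 arrays compared alone, a threshold of 0.10, the slide and the replicate number as blocks, comparisons within a slide, the series table and each array left out.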

Additional observations from a re-analysis of the deposited data

How the results depend on the processing

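In kyp, where no Mutator gene was called, 3 were with an offset of 50, 3 with an intensity trend, 2 after the dimmest 25% were dropped and 4 at an adjusted p under 0.10. In cmt3 the 5 calls became 9 with an intensity trend, 8 with the offset, 12 at an adjusted p under 0.10 (11 higher and 1 lower), 1 in a fit of the 4 arrays compared, 0 with the slide as a block and 0 with the replicate block. Leaving out 1 array gave 0 to 1 calls in cmt3 and 0 in kyp and between the mutants. These fits have fewer degrees of freedom than the fit of all arrays. Counts of genes past 2-fold without overlap in both directions together were 30 in kyp, 32 in cmt3 and 26 between the mutants. Without the lowest 25% of mean intensity over all arrays, the mutants included, 88 of the genes were left and the counts were 11, 16 and 16. With the offset, which shrinks the change of dim genes, they were 6, 13 and 8. Leaving out 1 array gave 30 to 59, 32 to 63 and 26 to 49, since a single array overlaps less often. The arrays whose loss moved them by over 1.5 times were wild type replicate 2 (59 in kyp and 63 in cmt3), kyp replicate 1 (52 in kyp), cmt3 replicate 2 (49 in cmt3 and 40 between the mutants) and kyp replicate 2 (49 between the mutants). AT4G06572 (0.22), AT2G02190 (0.22) and AT1G25784 (1.42) turned their sign in cmt3 with the slide as a block. The shift equals the difference of the 2 kyp arrays, the only genotype on both slides. Whether that difference is one of slides or of single arrays was not tested. The median change in cmt3 (-0.04) became 0.08 with the slide as a block, and lay between -0.10 and 0.04 with 1 array left out. For named genes, 492 values under alternatives kept direction and side of the threshold, 43 lost a call, 12 gained one and 3 turned sign. Quantile normalization, median centring and the series table left the 3 counts of calls within 1.5 times, although AT1G67240 missed the threshold with centring (adjusted p = 0.0513), as it did with robust moderation (0.0566).

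The labels give the replicate numbers 1 and 2 in every genotype and say nothing of what they share. Deviations of arrays with the same number correlated at -0.12 (wild type and kyp), 0.00 (wild type and cmt3) and -0.04 (kyp and cmt3). No strong shared effect of the number was seen, but with 2 arrays a genotype this check cannot exclude a pairing. The replicate block took the calls in cmt3 from 5 to 0. The arrays of a genotype repeated less well for Mutator genes than for all models.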
